A study of Mus musculus with 2 samples.

Results

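Aminoacyl-tRNA synthetases join each amino acid to its own tRNA, and their mRNAs were followed here together with those of a pair of scaffold proteins that hold several of the enzymes in a complex. The genes were taken from a list of symbols matched to the deposited gene tables by identifier, which gave 37 genes of 43346 Ensembl gene rows: 19 cytosolic synthetases, 16 mitochondrial synthetases (symbols ending in 2) and the 2 scaffold genes Aimp1 and Aimp2. The rule matches symbols and uses no measured value. The RNA came from G1E-ER4 cells, an immortalised male mouse erythroid line that lacks its own GATA1 and carries GATA1 fused to the ligand-binding part of the estrogen receptor. Both libraries were made from cells differentiated for 14 h in 10 nM 17beta-estradiol, which switches the fusion protein on, and no untreated or GATA1-null sample is analysed here. The labels number the 2 polyA-selected, paired-end libraries as biological replicates 2 and 1 (R2 and R1) of 1 group, but they cite a single biosample record for both, so the spread between them may be technical. A line is also a single cellular model, and it carries the fusion protein rather than native GATA1.

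Each synthetase activates its amino acid with ATP and transfers it to the matching tRNA, and the ribosome then reads the charged tRNA largely without checking the amino acid again. The enzymes fall into class I and class II, which have unrelated catalytic folds. The cytosol and the mitochondrion are served by separate nuclear genes for most amino acids, while Gars and Kars each serve both compartments from 1 gene. In red cell precursors the enzymes supply the making of globin, and many of their genes are known in mammals as targets of the amino acid response, in which the transcription factor ATF4 binds a short element near the gene's start. The symbols follow the letter of the amino acid, so that Vars is valyl-tRNA synthetase and Lars2 is the mitochondrial leucyl-tRNA synthetase.

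Expected counts summed to 60097379 in R2 and 38395481 in R1, so replicate 2 was 1.57 times as deep. A limit of 3 counts corresponds to 0.0499 counts in 1000000 (CPM) in R2 and 0.0781 in R1. Of 10 erythroid marker genes, 9 reached 1 TPM in both libraries. By the exact binomial test of scaled counts between the libraries, 5 of the 10 were called higher in R2 (24.3% of all genes tested), 1 lower (17.1% of all) and 4 were not called. Gata1 was at 2655.88 TPM in R2 and 1132.26 TPM in R1, where reads of the introduced fusion cannot be told apart from others, and Klf1 was at 754.29 TPM in R2 and 1422.06 TPM in R1. The summed level of all 10 was 34259.38 TPM in R2 and 19785.99 TPM in R1. Markers of granulocytes and macrophages summed to 1.27 TPM in R2 and 1.15 TPM in R1 over 6 genes, with Elane, Lyz2 and Itgam at 0 counts in both libraries. The 4 lymphoid markers summed to 1.56 TPM in R2 and 0.23 TPM in R1, the 4 fibroblast and endothelial markers to 0.02 TPM in R2 and 0.06 TPM in R1, and the 4 megakaryocyte markers to 9.25 TPM in R2 and 7.66 TPM in R1. In RNA from a bulk culture, fewer cells of a type and less RNA per cell cannot be told apart. TPM, a gene's transcripts in 1000000, divides by transcript length and is used wherever genes are compared with each other.

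Nearly all of the 37 genes were expressed. In both libraries 36 of the 37 genes reached 1 TPM, against 37.6% of 21461 nuclear protein-coding genes, and 12 reached 50 TPM, against 9.05%. The exception was Wars2, mitochondrial tryptophanyl-tRNA synthetase on chromosome 3 (99141068 to 99239186, GRCm38), at 0.42 TPM from 97 counts in R2 and 0.28 TPM from 36 counts in R1. All 37 had at least 10 counts in sum, and 10 of them stayed under 10 TPM in both libraries. The median over the 37 was 26.99 TPM in R2 and 21.92 TPM in R1. Over the 11230 genes with at least 10 counts in sum it was 9.27 TPM in R2 and 8.44 TPM in R1. Over the 8062 nuclear protein-coding genes at 1 TPM in both libraries it was 19.65 TPM in R2 and 19.3 TPM in R1.

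**Figure D1:**
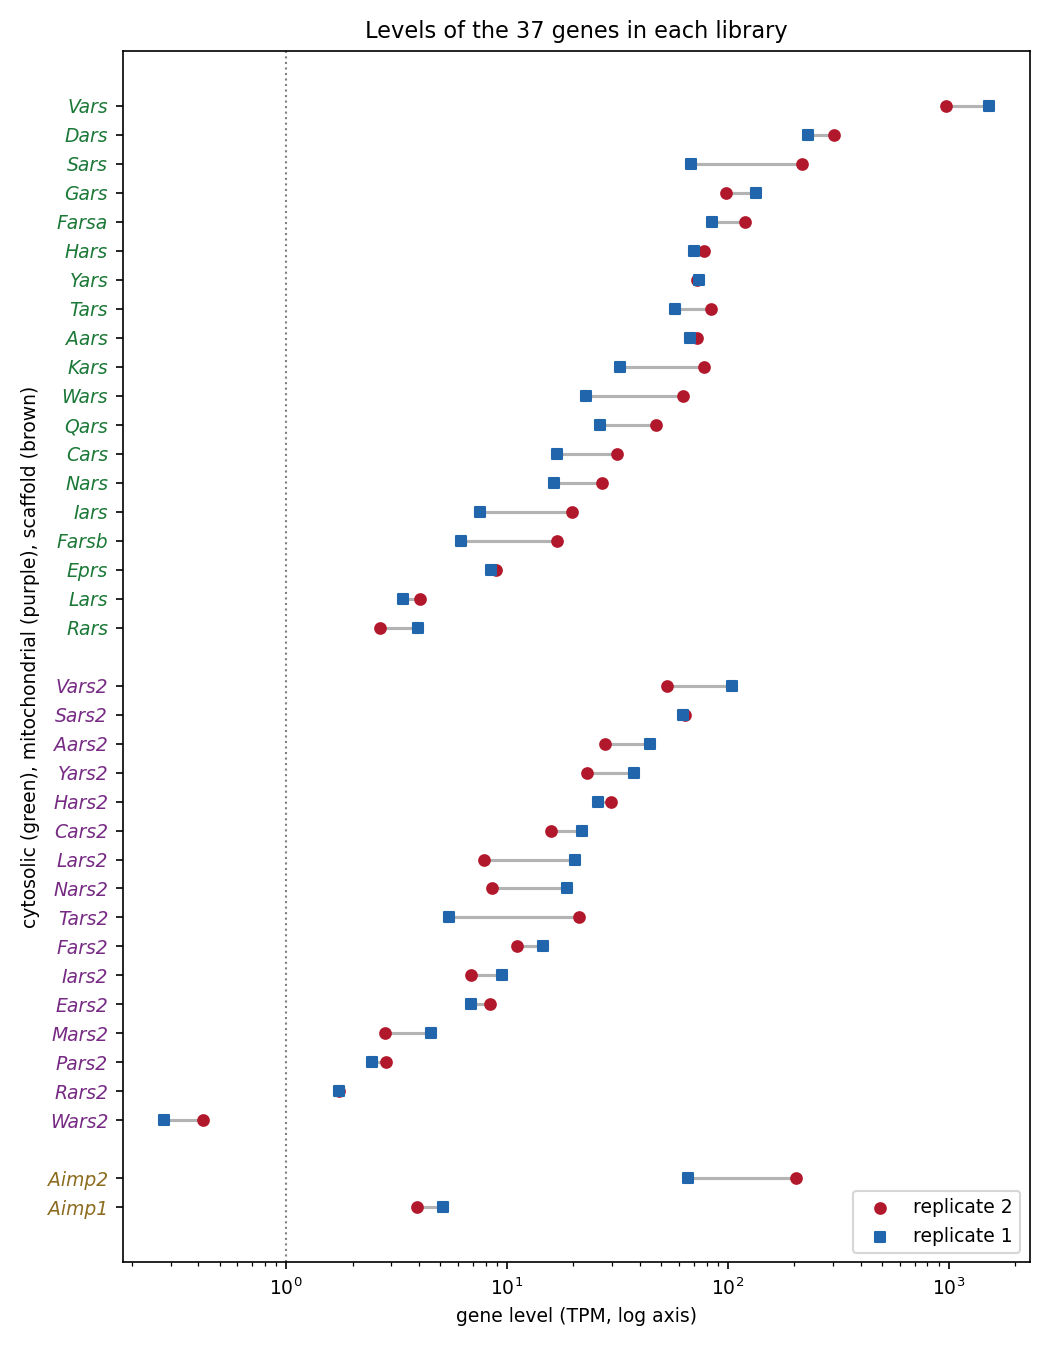
Level of each synthetase and scaffold gene in TPM on a log axis, 1 point per library, ordered by mean level within the cytosolic, mitochondrial and scaffold genes. Vars lies far to the right of all others in both libraries, and Wars2 is the only gene under 1 TPM.

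Among the cytosolic enzymes Vars stood alone. This gene on chromosome 17 (35000987 to 35016322, plus strand) was at 966.71 TPM in R2 and 1511.77 TPM in R1, a mean of 1239 ± 385.4 TPM (SD, n = 2). It was 3.2 times the next highest gene in R2 and 6.58 times in R1. Of the summed TPM of the 19 cytosolic synthetases followed, Vars held 41.9% in R2 and 61.9% in R1. Next came aspartyl-tRNA synthetase, Dars, with 302.11 TPM in R2 and 229.8 TPM in R1 (mean 266 ± 51.1, SD, n = 2), and seryl-tRNA synthetase, Sars, with 217.45 TPM in R2 and 68.41 TPM in R1 (mean 142.9 ± 105, SD, n = 2). The scaffold gene Aimp2 followed with 203.85 TPM in R2 and 65.8 TPM in R1. Glycyl-tRNA synthetase, Gars, had 98.09 TPM in R2 and 133.64 TPM in R1. Those 5 were the highest by mean level, and the ranges of Vars and Dars over the 2 libraries overlapped those of no other gene, Dars by a narrow margin. The ranges of Sars, Aimp2 and Gars overlapped one another.

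A broad middle followed. Alanyl-tRNA synthetase, Aars, had 72.81 TPM in R2 and 67.58 TPM in R1, and histidyl-tRNA synthetase, Hars, had 77.6 TPM in R2 and 69.89 TPM in R1. Tyrosyl-tRNA synthetase, Yars, had 72.74 TPM in R2 and 74.24 TPM in R1, and threonyl-tRNA synthetase, Tars, had 84.1 TPM in R2 and 57.88 TPM in R1. These 4 genes could not be ordered beyond their spread. Phenylalanyl-tRNA synthetase is built of alpha and beta chains in equal number, and its genes were far apart: Farsa (alpha) had 119.29 TPM in R2 and 84.94 TPM in R1 while Farsb (beta) had 16.86 TPM in R2 and 6.22 TPM in R1, a ratio of 7.08 in R2 and 13.7 in R1. Lysyl- (Kars, 78.04 TPM in R2 and 32.62 TPM in R1), tryptophanyl- (Wars, 62.47 TPM in R2 and 22.72 TPM in R1) and glutaminyl-tRNA synthetase (Qars, 47.33 TPM in R2 and 26.38 TPM in R1) were each higher in R2. Cysteinyl- (Cars, 31.46 TPM in R2 and 16.81 TPM in R1) and asparaginyl-tRNA synthetase (Nars, 26.99 TPM in R2 and 16.27 TPM in R1) were lower still. By class, the median over the 8 class I enzymes was 39.39 TPM in R2 and 19.77 TPM in R1, against 81.07 TPM in R2 and 68.0 TPM in R1 over the 10 class II enzymes; Eprs, which holds an enzyme of each class, was left out. The ratio of the medians was 0.388 ± 0.138 (SD, n = 2), although the highest gene of all, Vars, is of class I.

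The letters of the amino acid response element were looked for in the promoters because synthetase genes are textbook targets of that response. RefSeq windows on GRCm38.p6, from 250 bases before to 50 after the start, matched 28 of the 37 genes by symbol. The core TGATGNAA on either strand was in 5 of those 28, against 4.0% of 16522 protein-coding genes with a window and 2.4% of the 6486 of them that are at 1 TPM in both libraries. All 5 were cytosolic enzymes, of 12 with a window, and none of the 14 mitochondrial ones held it. For each gene a stretch that carries a match is shown 5′ to 3′ on the strand of the gene, with TGATGNAA or its reverse complement in capitals. Gars and Tars are given at 170 bases and the other genes at 30.
Aars, chr8:111033840-111033869, plus strand: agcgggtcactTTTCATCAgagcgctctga
Gars, chr6:55037851-55038020, plus strand: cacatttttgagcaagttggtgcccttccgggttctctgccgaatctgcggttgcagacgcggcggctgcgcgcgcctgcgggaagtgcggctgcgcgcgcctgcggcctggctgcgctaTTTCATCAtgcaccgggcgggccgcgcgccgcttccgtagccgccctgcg
Iars, chr13:49682126-49682155, plus strand: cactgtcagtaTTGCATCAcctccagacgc
Tars, chr15:11399639-11399808, minus strand: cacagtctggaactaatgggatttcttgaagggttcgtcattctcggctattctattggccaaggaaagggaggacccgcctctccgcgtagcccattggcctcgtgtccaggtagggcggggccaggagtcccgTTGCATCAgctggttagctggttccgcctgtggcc
Yars, chr4:129189895-129189924, plus strand: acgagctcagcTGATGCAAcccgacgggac
In Tars and Gars the match began 15 and 30 bases before the RefSeq start. In Iars, isoleucyl-tRNA synthetase, and in Yars it began at bases 8 and 4 of the transcript, and the match shown for Aars began at base 10. Aars held a further match, not shown, that began 112 bases before the RefSeq start. By mean level the 5 genes ran from Iars, at 19.67 TPM in R2 and 7.58 TPM in R1, to Gars, at the levels given above, and none of the 5 was among the 5 lowest of the 37. Other letters searched were the GATA core (AGATAA or AGATAG or TGATAA or TGATAG on both strands), in 8 of the 28 genes against 28.9% of all and 20.1% of the expressed genes, and the E-box CACGTG, which reads the same on both strands, in 5 of the 28 genes against 9.2% of all and 13.0% of the expressed genes. The E-box was in 4 cytosolic genes (Aars, Farsb, Iars and Tars) and in mitochondrial Ears2. No matches to different motifs overlapped in these windows, and no binding was measured.

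Mitochondrial enzymes were lower as a group, by an amount that the libraries did not fix well. Their median was 9.81 TPM in R2 and 16.7 TPM in R1, while that of the cytosolic enzymes was 72.74 TPM in R2 and 32.62 TPM in R1. The cytosolic median was thus 7.42 times the mitochondrial one in R2 and 1.96 times in R1, a mean of 4.69 ± 3.86 (SD, n = 2). The highest mitochondrial genes were valyl-tRNA synthetase Vars2 (53.25 TPM in R2 and 104.54 TPM in R1, mean 78.9 ± 36.3, SD, n = 2) and seryl-tRNA synthetase Sars2 (63.66 TPM in R2 and 62.88 TPM in R1), the only 2 of the 16 at 50 TPM in both libraries. Alanyl- (Aars2, 27.68 TPM in R2 and 44.39 TPM in R1), tyrosyl- (Yars2, 22.95 TPM in R2 and 37.59 TPM in R1) and histidyl-tRNA synthetase (Hars2, 29.65 TPM in R2 and 25.86 TPM in R1) came next. Cysteinyl- (Cars2, 15.76 TPM in R2 and 21.92 TPM in R1), phenylalanyl- (Fars2, 11.08 TPM in R2 and 14.57 TPM in R1) and isoleucyl-tRNA synthetase (Iars2, 6.88 TPM in R2 and 9.53 TPM in R1) were moderate. At the low end, methionyl-tRNA synthetase Mars2 had 2.81 TPM in R2 and 4.51 TPM in R1, and prolyl-tRNA synthetase Pars2 had 2.84 TPM in R2 and 2.44 TPM in R1. Arginyl-tRNA synthetase Rars2 had 1.74 TPM in R2 and 1.73 TPM in R1. Together with Wars2 and cytosolic arginyl-tRNA synthetase (Rars, 2.65 TPM in R2 and 3.95 TPM in R1), they were the 5 lowest genes by mean level.

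Cytosolic and mitochondrial enzymes for the same amino acid were set side by side in 16 pairs, as the log2 ratio of TPM plus 0.1. The cytosolic enzyme was higher in each library in 11 pairs, the mitochondrial enzyme in 1, and the direction differed between libraries in 4. In 5 pairs the mean ratio was over 2 times the range between the libraries, and the cytosolic enzyme was the higher in all 5: Wars over Wars2 (6.91 in R2 and 5.91 in R1), Vars over Vars2 (4.18 in R2 and 3.85 in R1), Farsa over Fars2 (3.42 in R2 and 2.54 in R1), Eprs over Pars2 (1.61 in R2 and 1.76 in R1) and Hars over Hars2 (1.39 in R2 and 1.43 in R1). By whole-gene TPM, Wars over Wars2 was the widest gap at a mean of 6.41 ± 0.71 log2 units (SD, n = 2). Lars and Lars2, the leucine enzymes, ran the other way, with the log2 ratio at -0.95 in R2 and -2.55 in R1. That pair did not clear the spread. Threonine (Tars over Tars2, 1.98 in R2 and 3.37 in R1), tyrosine (1.66 in R2 and 0.98 in R1), alanine (1.39 in R2 and 0.61 in R1), serine (1.77 in R2 and 0.12 in R1) and arginine (0.58 in R2 and 1.15 in R1) favoured the cytosolic enzyme in each library without clearing it. For asparagine (1.65 in R2 and -0.2 in R1), isoleucine (1.5 in R2 and -0.33 in R1), cysteine (0.99 in R2 and -0.38 in R1) and Farsb over Fars2 (0.6 in R2 and -1.21 in R1) the direction differed. Eprs and glutamyl-tRNA synthetase Ears2 were close, at 0.08 in R2 and 0.3 in R1, and their order turned with the scale. On coding transcripts the log2 ratio was 0.98 in R2 and 3.48 in R1, but per kilobase of the longest coding transcript it was -0.25 in R2 and -0.28 in R1, with Ears2 higher and clear of the spread. On that last scale serine lost its single direction, at 0.95 in R2 and -0.65 in R1. Asparagine (2.71 in R2 and 0.91 in R1) and isoleucine (2.29 in R2 and 0.57 in R1) favoured the cytosolic enzyme in each library there. Threonine then cleared the spread, at 2.53 in R2 and 3.89 in R1. In 11 of the 16 pairs the ratio was larger in R2. On protein-coding transcripts alone the same 5 pairs cleared the spread and tyrosine joined them, at 4.47 in R2 and 2.81 in R1. Hars over Hars2 then widened to 6.43 in R2 and 4.85 in R1 and Vars over Vars2 to 6.13 in R2 and 7.44 in R1, since little of the TPM of Hars2 and Vars2 lay on coding transcripts. Eprs stands in 2 of the pairs and so does Fars2, so the pairs are not all independent.

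**Figure D2:**
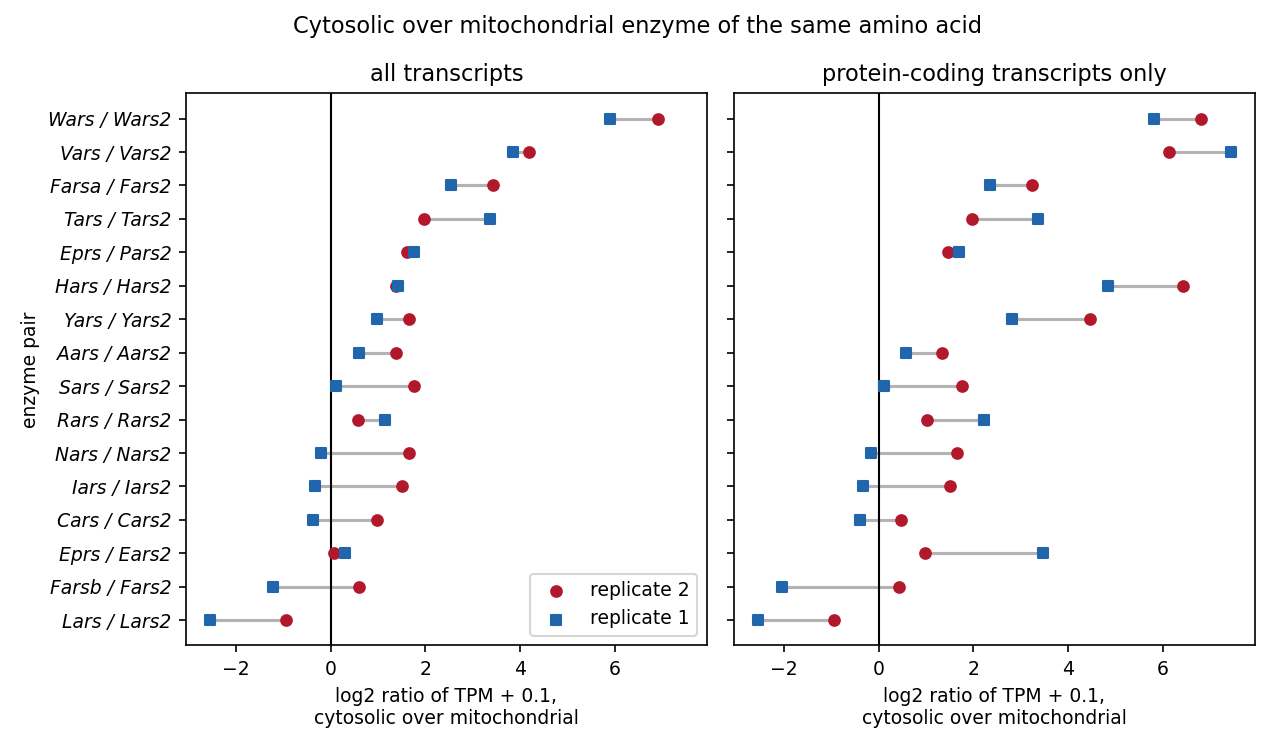
Log2 ratio of cytosolic to mitochondrial TPM (0.1 added to each) for 16 enzyme pairs, 1 point per library, with all transcripts in the left panel and protein-coding transcripts alone in the right one. On the left Wars over Wars2 lies farthest right, at 6.91 in R2 and 5.91 in R1, and Lars over Lars2 is the only pair below 0 in both libraries.

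The multi-synthetase complex binds a set of cytosolic enzymes to the scaffolds Aimp1 and Aimp2. Cytosolic methionyl-tRNA synthetase was not among the genes followed. Eef1e1 (22.41 TPM in R2 and 11.76 TPM in R1) was listed with the partners of tRNA charging and was not counted in the complex. The 9 members counted here were uneven and mostly low. Their median was 19.67 TPM in R2 and 8.49 TPM in R1, against 75.2 TPM in R2 and 68.0 TPM in R1 over the 12 cytosolic enzymes outside it, a ratio of 0.193 ± 0.0967 (SD, n = 2), or 0.115 on protein-coding transcripts alone. The highest and lowest members lay 114-fold apart in R2 and 68.2-fold apart in R1. Dars and Aimp2 were at the top. Eprs, the fused glutamyl-prolyl enzyme, had 8.88 TPM in R2 and 8.49 TPM in R1, leucyl-tRNA synthetase Lars had 4.06 TPM in R2 and 3.37 TPM in R1, and Rars and Iars are given above. Of the scaffolds, Aimp2 was 52.3 times Aimp1 in R2 and 12.8 times in R1, since Aimp1 had 3.9 TPM in R2 and 5.12 TPM in R1. Aimp2 on chromosome 5 (143902704 to 143909847, minus strand) overlaps Eif2ak1 on the other strand by 1548 bases, and whether counting used strand is not stated.

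What these levels stand for depends on which transcript received the reads. In 29 of the 37 genes over 50% of TPM lay on protein-coding transcripts in both libraries (17 of 19 cytosolic, 11 of 16 mitochondrial, and Aimp1), and in 22 the share was over 95%. The 8 others were Yars, Qars, Aimp2, Vars2, Yars2, Hars2, Ears2 and Rars2. By share of expected counts in place of TPM, 31 of the 37 genes were over 50%. Most of the TPM of Yars, 74.8% in R2 and 87.0% in R1, was on a 647-base retained-intron transcript of 3 exons. That short transcript had fewer counts than the 2909-base coding one in R2 (1454.76 against 2698.75) but a higher TPM (54.44 against 18.02), since TPM divides by length. In R1 it had more counts as well (983.06 against 729.8). For Hars2 a 772-base retained-intron transcript held 97.1% in R2 and 90.3% in R1, for Yars2 a 1412-base one held 96.8% in R2 and 96.9% in R1, and for Vars2 a 722-base one held 66.2% in R2 and 74.0% in R1. The coding transcripts alone gave Hars2 0.8 TPM in R2 and 2.33 TPM in R1, Yars2 0.72 TPM in R2 and 1.15 TPM in R1, and Vars2 11.52 TPM in R2 and 7.76 TPM in R1. By counts the 4425-base coding transcript of Vars2 led its 722-base one in R2 (2675.7 against 1085.83). In R1 it did not (1010.97 against 1353.76).

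For Qars a 1643-base retained-intron transcript held 74.0% in R2 and 0% in R1, where a 462-base one held 51.6%, so its 2 libraries describe different models. Ears2 had 50.2% in R2 and 88.8% in R1 on a 3222-base retained-intron transcript, and Rars2 had 34.1% in R2 and 39.0% in R1 on a 683-base processed transcript. Aimp2 had 56.8% in R2 and 43.5% in R1 on a 591-base retained-intron transcript, which lies from 143906373 to 143909788 and so outside the Eif2ak1 overlap. On coding transcripts alone Aimp2 had 87.9 TPM in R2 and 37.2 TPM in R1. Its 1185-base coding transcript runs from 143902704 to 143909839 and so spans that overlap, where strand use in counting is not stated. By counts its 1185-base coding transcript led the 591-base one in R2 (4896.75 against 2743.5) and in R1 (1143.43 against 386.89). Counting coding transcripts alone, 32 of the 37 genes reached 1 TPM in both libraries.

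Coding type does not remove the length effect. Dars drew 96.7% in R2 and 94.6% in R1 of its TPM from a 645-base coding transcript of 4 exons, while the 2175-base transcript of 16 exons was at 9.85 TPM in R2 and 12.43 TPM in R1. Counted per kilobase of its longest coding transcript, Dars moved from rank 2 to rank 6 of the 37. Vars drew 44.4% in R2 and 59.3% in R1 from an 819-base coding transcript, yet its 4137-base transcript of 30 exons alone was at 382.78 TPM in R2 and 462.91 TPM in R1, above every other member in both. Vars kept rank 1 on the longest-transcript scale, at 416.2 CPM per kilobase in R2 and 487.2 in R1, while Vars2 moved from rank 7 to rank 16. Kars was split between a 2007-base transcript of 14 exons (69.3% in R2 and 90.5% in R1) and a 2156-base transcript of 15 exons (27.9% in R2 and 7.69% in R1). In human cells, inclusion of an extra exon makes the mitochondrial form of this enzyme, and which mouse transcript does so was not examined.

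**Figure D3:**
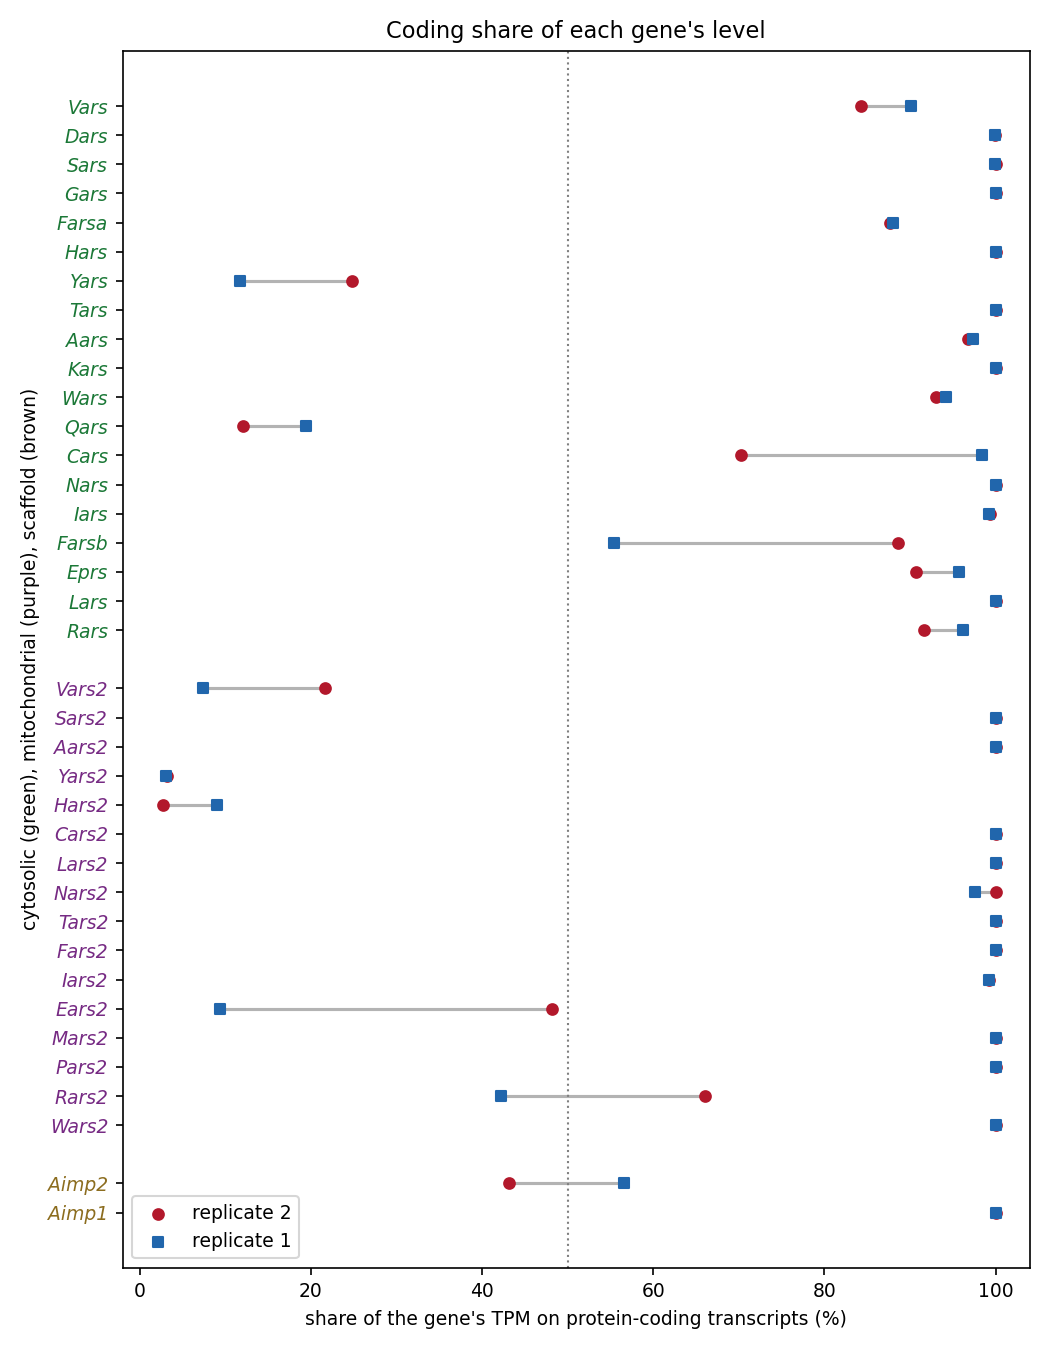
Percent of each gene's TPM on protein-coding transcripts, 1 point per library. In 22 of the 37 genes the share is over 95% in both libraries, and Yars, Qars, Vars2, Yars2, Hars2 and Ears2 lie below 50% in both.

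The replicates differed, and they did so unevenly over the synthetase genes. Counts were scaled by TMM and compared by the exact binomial test (two-sided), and p-values were adjusted after Benjamini and Hochberg over 11230 genes. A gene was called when its adjusted p was under 0.05 and its counts lay 1.5-fold or more apart. This compares 2 libraries and not conditions, and its intervals cover counting error only. Of the 37 genes, 17 were called, against 41.4% of all genes tested. Of these, 14 were higher in R2, against 24.3% of all genes, and 3 were lower, against 17.1%. All 10 called cytosolic enzymes were higher in R2, of 19, whereas 3 of the 16 mitochondrial ones were higher and 3 lower. The difference between the cytosolic and mitochondrial enzymes was not tested. On the log2 scale, the median count ratio of R2 over R1 was 0.60 for the cytosolic enzymes, -0.20 over the mitochondrial ones and 0.05 over all genes tested.

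Tars2, mitochondrial threonyl-tRNA synthetase, differed most, with 21.29 TPM in R2 and 5.49 TPM in R1 and a scaled count ratio of 4.11 (95% Clopper-Pearson interval 3.68 to 4.61). Sars was higher in R2 at a ratio of 3.31 (3.20 to 3.42), Qars at 3.02 (2.80 to 3.27), Aimp2 at 2.98 (2.82 to 3.15) and Wars at 2.83 (2.69 to 2.97). Iars, Kars, Farsb, Nars, Cars, Tars and Farsa were higher as well, at ratios between 2.80 (Iars) and 1.51 (Farsa). For Qars the 1643-base retained-intron transcript had 2832.97 counts in R2 and 0 in R1. The coding transcripts of Qars were nearly level, at 5.72 TPM in R2 and 5.13 TPM in R1. Wars2 was called higher at a ratio of 1.62, from 97 counts in R2 and 36 in R1 (adjusted p = 0.0173, exact binomial test). Rars2 was called higher at 1.51, from 118 counts in R2 and 47 in R1 (adjusted p = 0.0224, exact binomial test). In the other direction Lars2 was at a ratio of 0.422 (0.3955 to 0.4498), from 7.91 TPM in R2 and 20.27 TPM in R1, mitochondrial asparaginyl-tRNA synthetase Nars2 at 0.507 (0.461 to 0.559), from 8.53 TPM in R2 and 18.74 TPM in R1, and Yars2 at 0.662 (0.617 to 0.711). Aars2 and Mars2 had ratios of 0.674 and 0.675 and fell just short of the 1.5-fold limit. Vars, the highest gene, was at 0.811 (0.803 to 0.818) and was not called. The calls of Farsa and Rars2 were lost with DESeq2 size factors, at log2 ratios of 0.584 and 0.583, and that of Yars2 with total counts as library sizes, at -0.518, while Yars was called with total counts, at 0.62. Only Hars2 (adjusted p = 0.103) and Aimp1 (adjusted p = 0.0835) missed the adjusted p of the exact binomial test itself.

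**Figure D4:**
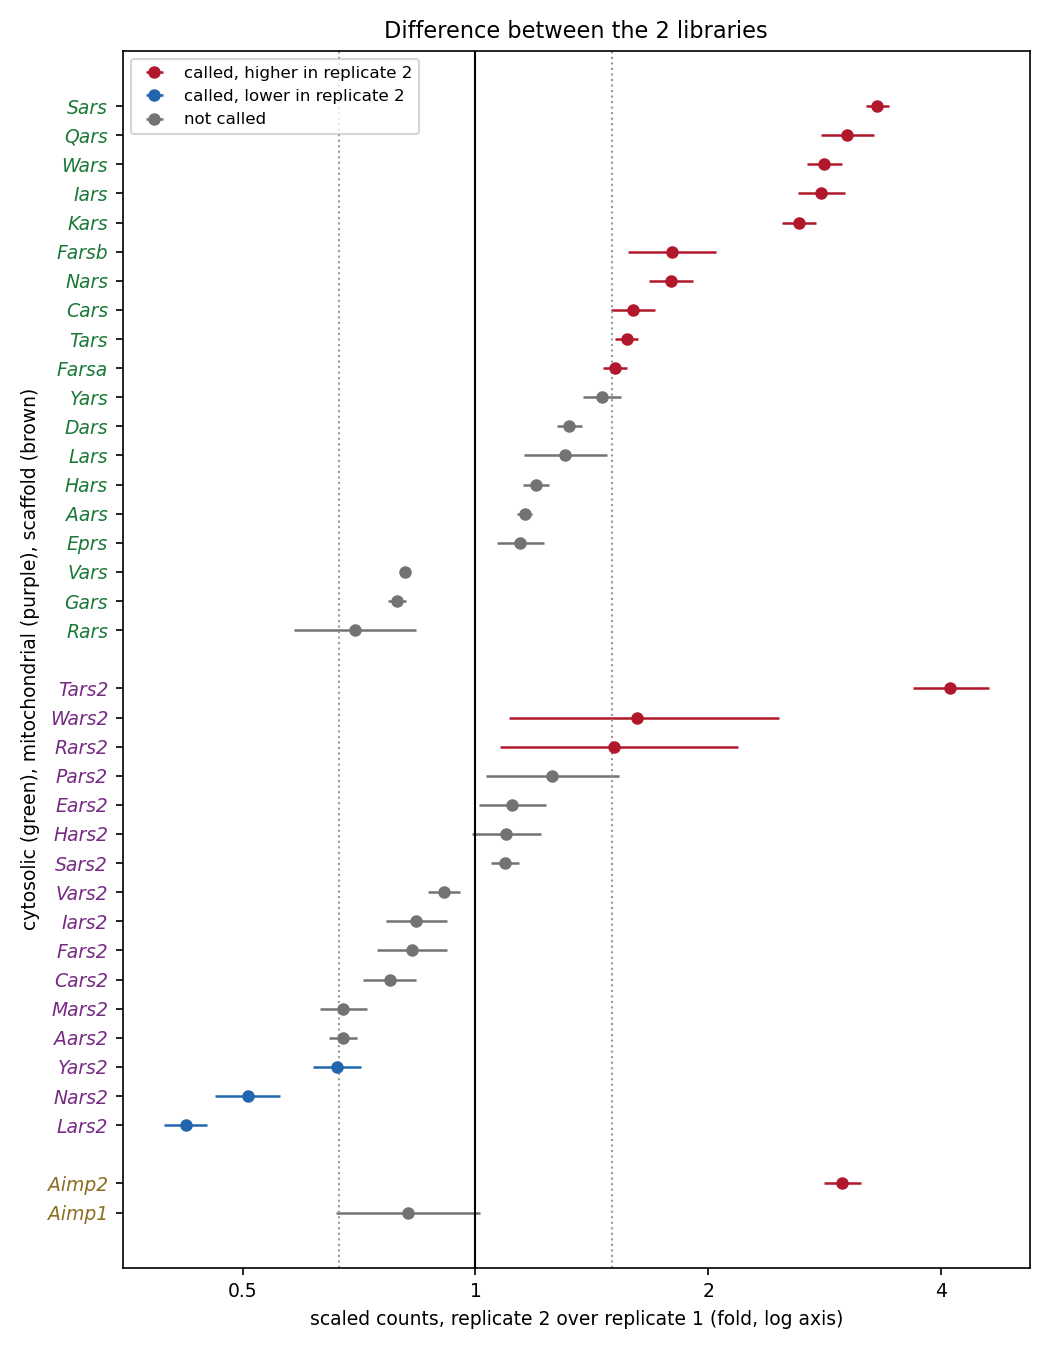
Ratio of scaled counts, replicate 2 over replicate 1, for each gene on a log axis, with 95% Clopper-Pearson intervals that cover counting error only. The solid line marks equal counts and the dotted lines the 1.5-fold limit; 16 of 19 cytosolic genes lie to the right of the solid line, Tars2 is farthest right and Lars2 farthest left.

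GC content, taken for each gene from its transcript of highest mean TPM, was set beside these ratios. Its part in them was not tested. By that transcript the 37 genes ranged from 38.8% to 66.9% GC, with Vars at the top through its 819-base transcript. For several genes, such as Yars and Hars2, that transcript is of the retained-intron type. Pearson's r across genes between the log2 ratio and GC content was -0.107 over 11080 tested genes with a transcript sequence and -0.098 over the 37, and genes are not independent replicates. With the GC trend of all genes removed, the median log2 ratio was 0.47 over the cytosolic enzymes, 17 of 19 of which lay above the trend, and -0.21 over the mitochondrial ones, 7 of 16 above. The ratio of TPM can differ from that of counts where transcripts were swapped: Yars had a count ratio of 1.46 but nearly equal TPM, and Rars2 a count ratio of 1.51 with 1.74 TPM in R2 and 1.73 TPM in R1. Farsb, with a count ratio of 1.79 and a TPM ratio of 2.71, drew 79.9% of its TPM in R2 and 11.3% in R1 from a 970-base coding transcript, and 11.4% in R2 and 41.8% in R1 from a 1801-base one of the nonsense-mediated decay type.

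Other genes of charging and elongation were read from lists of known members. Of 14 partners of tRNA charging, 10 reached 1 TPM in both libraries, 8 were called higher in R2 (24.3% of all genes tested), 1 lower (17.1% of all) and 5 were not called. By mean level the editing enzyme gene Aarsd1 was highest (57.73 TPM in R2 and 63.38 TPM in R1). Next was Pstk, the kinase for seryl-tRNA of selenocysteine (46.1 TPM in R2 and 67.89 TPM in R1). The lowest by mean level was Qrsl1 (1.41 TPM in R2 and 0.46 TPM in R1), a subunit of the amidotransferase that makes mitochondrial glutaminyl-tRNA. The 8 called higher were Prorsd1, Gatb, Qrsl1, Dtd1, Trnt1, Dtd2, Eef1e1 and Xpot. Their count ratios ran from 21.4 (Prorsd1, 688 counts in R2 and 19 in R1) to 1.85 (Xpot). The 1 called lower was Tarsl2, a further threonyl-tRNA synthetase gene, at a count ratio of 0.646. The called genes are named after their values were seen. Of 9 mitochondrial translation factors 8 reached 1 TPM, and 4 were called, against 41.4% of all genes tested, each of them higher in R2: Tufm, Gfm2, Mtif2 and Mtif3, named after their values were seen. The elongation factor genes Tsfm (42.9 TPM in R2 and 55.96 TPM in R1) and Tufm (43.79 TPM in R2 and 20.36 TPM in R1) were the highest of that list and the release factor gene Mtrf1 (0.26 TPM in R2 and 0.38 TPM in R1) the lowest.

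All 6 cytosolic elongation factor genes were expressed. By mean level they were led by Eif5a (1993.96 TPM in R2 and 2320.5 TPM in R1) and Eef2 (2686.06 TPM in R2 and 600.24 TPM in R1). Eef1g had the lowest mean (95.39 TPM in R2 and 140.59 TPM in R1). In R1 alone Eef1a1 (675.15 TPM) was above Eef2, and Eef1b2 (49.42 TPM) was below Eef1g. Of the 6, Eef2, Eef1b2 and Eef1d were called higher in R2 (24.3% of all genes tested) and Eef1a1 lower (17.1% of all), named after their values were seen. Among 10 genes of the amino acid response, 7 reached 1 TPM in both libraries, led by the transcription factor gene Atf5 (594.54 TPM in R2 and 900.55 TPM in R1) and by Shmt2, mitochondrial serine hydroxymethyltransferase (463.5 TPM in R2 and 295.48 TPM in R1). Chac1 and Phgdh had 0 counts in both libraries, which allows up to 0.0499 CPM in R2 and 0.0781 in R1. Shmt2, Ddit3 and Trib3 were called higher in R2 (24.3% of all genes tested) and Psat1 lower (17.1% of all), and 3 were not called. These names too were picked after their values were seen.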

How the data were processed

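RNA was measured in 2 polyA-selected libraries of 1 group, grouped by the labels. Per the labels the build is mm10, and the deposited notes name GENCODE M4, while the aligner and the version of the quantifier are not given in the sources at hand. Per the file headers, the deposited expected counts are estimated and need not be whole (35 of the 37 genes were whole within 0.005 in both libraries). The deposited TPM is length-scaled and sums to 1000000. The deposited isoform percent gives how a gene's TPM is divided over its transcripts, and coding shares were computed from transcript TPM.

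Symbols, transcript types, exons and coordinates come from GENCODE M21 on GRCm38 (42462 of 43346 Ensembl rows matched; 181 of 182 transcripts of the 37 genes had a type, 152 of 181 had the same length). The other rows held 0 counts in replicate 2 and 2 in replicate 1 and were left out. Promoters are from RefSeq, GRCm38.p6, and were used for 28 of the 37 genes; a further promoter stretch is not reported here.

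Genes with 1 TPM in each library counted as expressed, and those with 50 as high. Expected counts were rounded, 0.5 was added for the ratio, and library sizes were scaled by TMM (edgeR 4.0.16, R 4.3.3; factors 1.03 in replicate 2 and 0.974 in replicate 1). The binomial test used scipy 1.17.1 on genes with at least 10 counts in sum. A quasi-likelihood test needs residual degrees of freedom that 1 library against 1 lacks. The GC trend was a lowess fit with span 0.3. DESeq2 1.42.0 gave alternative size factors.

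Members, gene lists, tests and thresholds were chosen with earlier results of these data known. Every member is named, and values are given for the 5 highest and 5 lowest, the 5 largest replicate differences in each direction, members of a pair, and those with a coding share under 50%; of each other list, the 2 highest and the lowest by mean level are named.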

Additional observations from a re-analysis of the deposited data

How the results depend on the processing

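No paired analysis was possible because there is 1 group. With 2 libraries, leaving 1 out ends the replicate comparison. The cytosolic over mitochondrial ratio of medians was 3.98 to 5.56 under other length scalings, coding transcripts alone, and without Gars and Kars, and 1.96 to 7.42 with either library alone. The 5 pairs clearing the spread became 8 with CPM not divided by length. With either library alone, where only the direction can be asked, 11 to 15 pairs had the cytosolic enzyme higher. The ratio of the counted complex members to the other cytosolic enzymes was 0.115 on coding transcripts alone. The class I over class II ratio was 0.176 on coding transcripts alone and 0.236 per kilobase of the longest coding transcript, alternatives chosen after seeing the data. The 17 genes called between replicates became 8 at a fold minimum of 2 and 35 with none, and 15 with DESeq2 size factors. The median log2 ratio over the 37 was 0.15 by TPM plus 1 against 0.26 by scaled counts. Apart from the changed fold minimum, the causes were not tested. Depth limits Wars2 and Rars2 most.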

Other observations

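Several of these genes share a start region with a gene on the other strand. A protein-coding start on the opposite strand lay within 1000 bases for 11 of the 37 genes, against 20.4% of 8062 nuclear protein-coding genes at 1 TPM in both libraries. Hars and Hars2, the cytosolic and mitochondrial histidine enzymes, lie on opposite strands with starts 197 bases apart and had count ratios of replicate 2 over replicate 1 of 1.197 and 1.095. Sars2 and Mrps12, a mitochondrial ribosomal protein gene, start 172 bases apart. Sars2 had 63.66 TPM in replicate 2 and 62.88 TPM in replicate 1 and a count ratio of 1.09, while Mrps12 had 402.36 TPM in replicate 2 and 718.46 TPM in replicate 1 and a count ratio of 0.597. Kars, with starts 75 bases from Terf2ip, had a count ratio of 2.62 against 0.77 for that neighbour, and Wars, 543 bases from Wdr25, had 2.83 against 1.77. Aimp2, whose start is 117 bases from that of the mismatch repair gene Pms2, had 203.85 TPM in replicate 2 and 65.8 TPM in replicate 1, while Pms2 had 2.49 TPM in replicate 2 and 1.84 TPM in replicate 1. Of the pairs named here, Hars and Hars2 overlap by 198 bases, and Wars and Wdr25 by 544. Because strand use in counting is not stated, reads from such overlaps cannot be told apart. In all, 9 of the 37 genes overlap a gene on the other strand with at least 100 counts in sum. These neighbours were picked after their values were seen, and no test was made.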
